A study of Homo sapiens with 8 samples.

Results

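The inhibitor of apoptosis (IAP) proteins and the caspase machinery that they restrain were followed through 8 genes, namely XIAP, BIRC2, BIRC3, BIRC6, DIABLO, HTRA2, CASP9 and APAF1. They were chosen by name as the main IAP proteins beside Survivin, their mitochondrial antagonists, and the initiator caspase with its scaffold. Earlier results of these data were known at that choice, so shares set beside those of all genes are descriptive only. All 8 were found by symbol among the 26364 genes of the count file, and all 8 were among the 14201 genes with enough counts to be tested. Total RNA came from LN229, a human glioblastoma cell line without MGMT and with functional mismatch repair and p53. Stable G418-selected cells carried Survivin fused to eGFP from a pcDNA3.1 plasmid, either with its functional nuclear export sequence (Surv-GFP, clone D6, mainly cytoplasmic) or with leucines of that sequence changed to alanine (SurvNESmut-GFP, clone L2, mainly nuclear). Each form was represented by 1 clone, so the Survivin variant and the clone cannot be told apart. Cells were left untreated or were exposed to 50 µM temozolomide (TMZ), a methylating anticancer drug, for 48 h, which gave 4 groups of 2 libraries lettered a and b. Upon 50 µM TMZ the paper saw the Surv-GFP fusion accumulate in the nucleus, so the cytoplasmic location given above refers to untreated cells. The study describes independent biological replicates measured in technical duplicate, but not which of these the letters mark, so all p-values measure the spread between these libraries, which may be technical.

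IAP proteins carry BIR domains with which they bind partner proteins. XIAP blocks caspase-9 and the executioner caspases directly, whereas the products of BIRC2 and BIRC3, called c-IAP1 and c-IAP2, are ubiquitin ligases that sit on TNF receptor complexes and steer NF-kappaB signalling. After damage, mitochondria release cytochrome c, which assembles APAF1 and caspase-9 into the apoptosome, and they release SMAC (the product of DIABLO) and HTRA2, which lift the block set by IAP proteins. Several IAP genes are expressed in glioblastoma, and TMZ damages their DNA at guanine, which can end in apoptosis or in senescence.

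Each library held 15826923 to 18861603 reads assigned to genes. Letters of a group correlated with r between 0.9939 and 0.9959 in log2 CPM (counts scaled to a common library size) across genes, which are not independent replicates, and no pair agreed within sampling noise (chi-square per degree of freedom 2.16 to 5.54, highest in SurvNESmut-GFP with TMZ). Of the 7 glioma markers VIM, NES, SOX2, CD44, S100B, OLIG2 and GFAP, 6 had enough counts to be tested, and the astrocyte marker GFAP was near 0 with 0 to 17 counts. S100B had 4635 to 14733 counts in Surv-GFP and 245 to 759 in SurvNESmut-GFP libraries. The immune, endothelial and epithelial markers PTPRC, CD3E, AIF1, PECAM1 and EPCAM had at most 7 counts, VWF had 3 to 16, and the fibroblast marker COL1A1 had 57 to 119 counts in Surv-GFP and 474 to 788 in SurvNESmut-GFP. The part of these clone differences in the results was not tested.

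The stretch before the start of BIRC3 is shown first, because BIRC3 had the widest range of the 8 genes and its neighbour on chromosome 11, BIRC2, also rose upon TMZ in both clones. The 250 bases before each start are given 5′ to 3′ from RefSeq (GRCh38.p14), for BIRC3 from chr11:102317234-102317483 and for BIRC2 from chr11:102347124-102347373, both on the plus strand. Capitals mark matches to the NF-kappaB consensus, searched on both strands.
BIRC3: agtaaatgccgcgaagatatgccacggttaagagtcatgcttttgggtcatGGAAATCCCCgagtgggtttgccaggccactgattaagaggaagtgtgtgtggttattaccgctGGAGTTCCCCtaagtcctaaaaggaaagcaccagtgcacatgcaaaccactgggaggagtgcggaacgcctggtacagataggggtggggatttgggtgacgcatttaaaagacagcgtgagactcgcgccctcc
BIRC2: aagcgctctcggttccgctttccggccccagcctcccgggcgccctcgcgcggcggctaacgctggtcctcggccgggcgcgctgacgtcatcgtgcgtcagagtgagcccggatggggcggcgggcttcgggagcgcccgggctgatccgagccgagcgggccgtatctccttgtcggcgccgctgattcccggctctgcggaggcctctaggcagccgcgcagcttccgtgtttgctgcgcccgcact
The 2 matches before BIRC3 begin 199 and 135 bases before the start. In windows of 300 bases around a start (250 before, 50 after), 5.91% of 35116 RefSeq promoters held this motif, and of the 8 genes BIRC3 was the one that did. A p53 half-site was found in 6.63% of these promoters and, of the 8, in that of CASP9 (1 match, 188 bases before the start). These matches describe the sequence, and factor binding was not measured.

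The first question was how TMZ changed these genes in cells whose Survivin can leave the nucleus. In Surv-GFP cells, 3 of the 4 IAP genes rose (BIRC3 8.75-fold, BIRC2 2.18-fold, XIAP 1.33-fold), HTRA2 rose 1.25-fold and APAF1 fell to 0.626 of its untreated level. Thus 4 of the 8 genes were higher and 1 was lower at a Benjamini-Hochberg adjusted p of 0.05 (edgeR quasi-likelihood test), where 30.1% of all genes tested were higher and 28.9% lower. Over the 8 genes the median log2 fold change came to 0.28, and over all genes tested to 0. In bulk RNA, fewer cells with a transcript and less of it per cell cannot be told apart.

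In SurvNESmut-GFP cells the same exposure changed 4 of these genes. BIRC3 rose 3.33-fold and BIRC2 1.19-fold, while APAF1 fell to 0.744 and HTRA2 to 0.895 of their untreated levels. Accordingly 2 of 8 were higher and 2 lower, where 18.6% and 19.1% of all genes tested were, and the median log2 fold change was -0.11 against 0.0035 over all genes. In the normalized inter-clonal comparison, which subtracts the TMZ effect in Surv-GFP from that in SurvNESmut-GFP, 5 of 8 genes had a lower log2 fold change in SurvNESmut-GFP and 0 a higher one, where 20.2% and 16.6% of all genes did. These 5 were BIRC3, BIRC2, XIAP, HTRA2 and CASP9. The median difference of the 8 genes was -0.447 on the log2 scale, and that of all genes was -0.001.

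**Figure D1:**
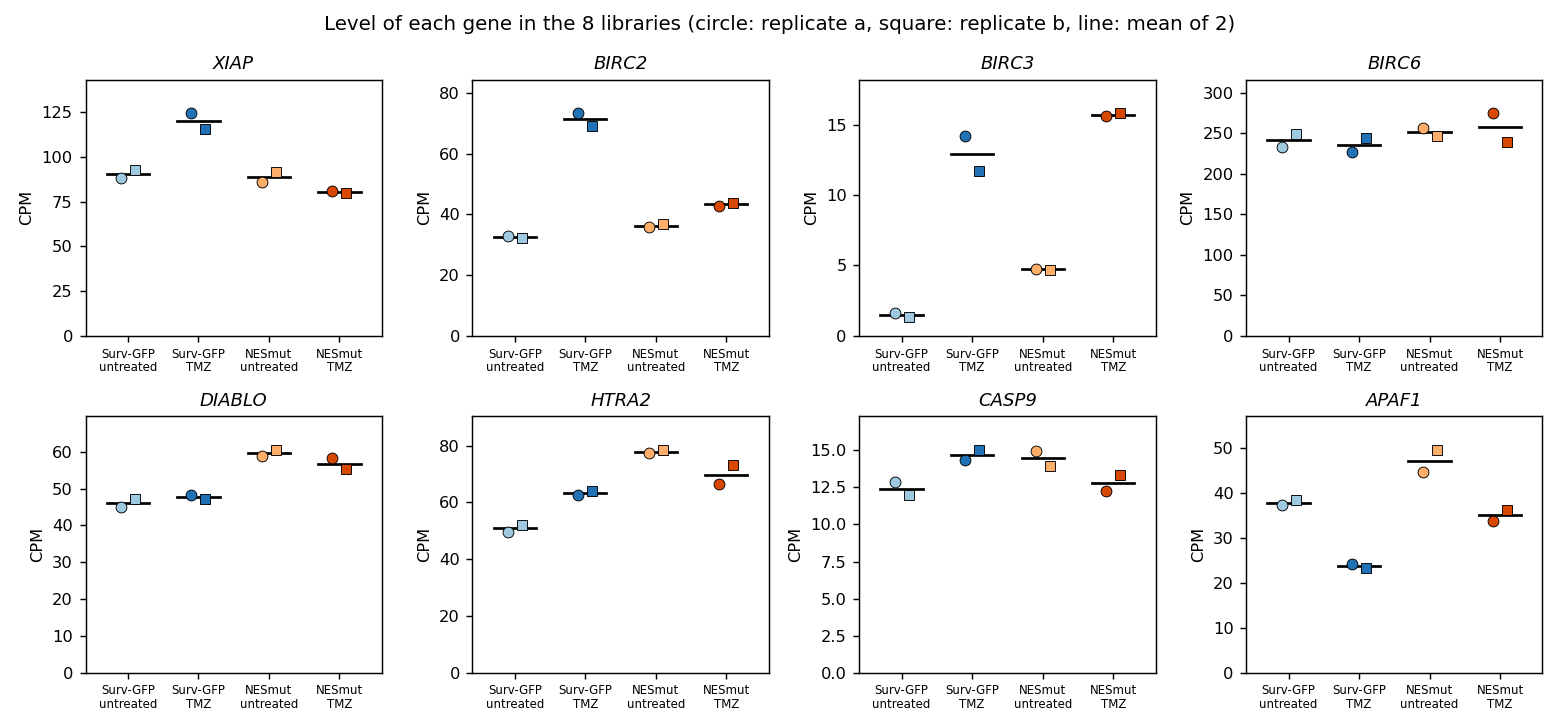
CPM of the 8 genes (y axis, from 0) in the 4 groups (x axis, NESmut stands for SurvNESmut-GFP), with a circle for replicate a, a square for replicate b and a line at the mean of 2. BIRC2 stood highest in Surv-GFP with TMZ, BIRC3 was above 11 CPM in all 4 TMZ libraries, and the groups of BIRC6 overlapped.

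XIAP, the IAP protein that binds caspases most directly, was at 88.2 and 92.7 CPM in untreated Surv-GFP and at 124 and 115 CPM with TMZ. In SurvNESmut-GFP it was at 86.2 and 91.5 CPM untreated and at 80.7 and 79.7 CPM with TMZ. The TMZ libraries thus lay above the untreated ones in Surv-GFP and below them in SurvNESmut-GFP, without overlap in either clone. The log2 fold change was 0.41 ± 0.055 (SE, n = 2 per group, edgeR adjusted p = 7.56e-06) in Surv-GFP. In SurvNESmut-GFP it was -0.15 ± 0.057, which missed the threshold (edgeR adjusted p = 0.0505). The difference between the TMZ effects was -0.55 ± 0.079 (edgeR adjusted p = 4.38e-05). Untreated, the clones overlapped in XIAP, with a log2 difference of -0.026 (95% interval -0.14 to 0.092). With TMZ, SurvNESmut-GFP held 0.669 of the Surv-GFP level (edgeR adjusted p = 1.01e-07). Of the 50-base stretches of XIAP transcripts 2.45% also occur in other genes, and how reads from them were assigned is not given.

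BIRC2, which codes for c-IAP1, was at 32.9 and 32.3 CPM in untreated Surv-GFP and reached 73.3 and 69.2 CPM with TMZ. The SurvNESmut-GFP libraries rose from 35.8 and 36.7 to 42.9 and 43.6 CPM. None of the 4 groups overlapped, and Surv-GFP with TMZ stood alone at the top. TMZ changed BIRC2 by 1.13 ± 0.061 on the log2 scale in Surv-GFP (edgeR adjusted p = 1.27e-10) and by 0.25 ± 0.064 in SurvNESmut-GFP (edgeR adjusted p = 0.00471). They differed by -0.87 ± 0.088 (edgeR adjusted p = 1.26e-06). In Surv-GFP, 9.26% of all genes tested had a larger absolute log2 fold change than BIRC2, and in SurvNESmut-GFP 40.2% did.

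BIRC3, which codes for c-IAP2, had the lowest level per exon length of the 8 genes and changed most. In untreated Surv-GFP it was at 1.63 and 1.32 CPM, from 30 and 24 counts, and with TMZ at 14.2 and 11.7 CPM, from 265 and 204 counts. In SurvNESmut-GFP it was already at 4.77 and 4.67 CPM untreated and came to 15.6 and 15.8 CPM with TMZ. All TMZ libraries lay above all untreated libraries, and untreated SurvNESmut-GFP lay above untreated Surv-GFP. On the log2 scale BIRC3 changed by 3.13 ± 0.17 in Surv-GFP (edgeR adjusted p = 1.9e-10) and by 1.73 ± 0.13 in SurvNESmut-GFP (edgeR adjusted p = 4.47e-08), and 0.915% and 1.56% of all genes tested changed more. The difference between these effects was -1.39 ± 0.24 (edgeR adjusted p = 0.000283). Untreated, SurvNESmut-GFP held 3.19 times the BIRC3 level of Surv-GFP (edgeR adjusted p = 2.99e-06), and with TMZ 1.21 times (edgeR adjusted p = 0.0389). The latter call was lost in 7 of 17 alternative fits, for example without Surv-GFP TMZ replicate b, where the log2 difference fell from 0.28 to 0.15 (edgeR adjusted p = 0.339).

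BIRC2 and BIRC3 lie beside each other and are close relatives, but of their 50-base stretches of transcript only 0.224% and 0.144% were shared between them. Of the CPM of both c-IAP genes together, BIRC3 made up 4.71% and 3.93% in untreated Surv-GFP and 16.2% and 14.5% with TMZ. In SurvNESmut-GFP its share was 11.7% and 11.3% untreated and 26.7% and 26.6% with TMZ. BIRC2 therefore remained the more abundant c-IAP transcript in all 8 libraries by CPM and, per kb of exon, in all 4 groups.

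BIRC6 codes for a giant IAP protein that is also a ubiquitin-conjugating enzyme. It was at 233.8 and 249 CPM in untreated Surv-GFP, at 227 and 244 CPM with TMZ, at 256 and 246 CPM in untreated SurvNESmut-GFP and at 275 and 239.9 CPM with TMZ. Neighbouring groups overlapped throughout, and the highest group mean was 1.09 times the lowest. Upon TMZ its log2 fold change was -0.036 (95% interval -0.17 to 0.097) in Surv-GFP and 0.035 (-0.098 to 0.17) in SurvNESmut-GFP (edgeR adjusted p = 0.648 and 0.696). The intervals leave room for changes of up to about 0.17 on the log2 scale in either direction.

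**Figure D2:**
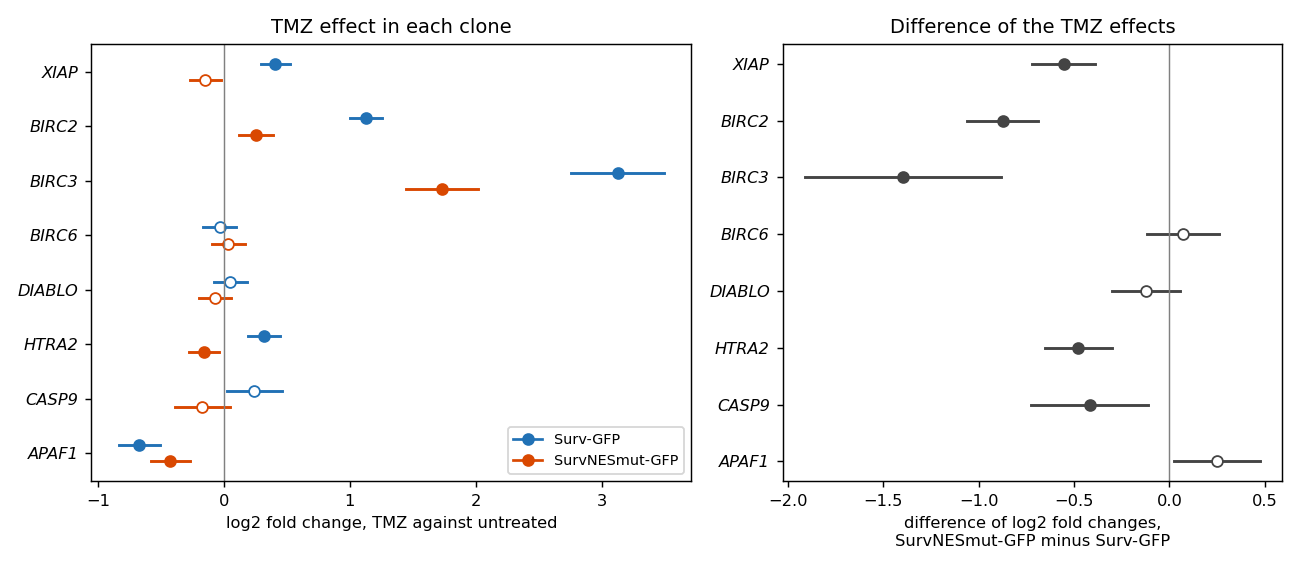
Left, log2 fold change of TMZ against untreated (x axis) for the 8 genes (y axis) in Surv-GFP (blue) and SurvNESmut-GFP (orange); right, the difference of both, SurvNESmut-GFP minus Surv-GFP. Points are edgeR estimates, bars 95% intervals, and filled points passed an adjusted p of 0.05; the 5 filled points on the right, from BIRC3 at -1.39 to CASP9 at -0.42, are all below 0.

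The clones differed in both antagonists of IAP proteins when untreated. DIABLO was at 45.0 and 47.2 CPM in untreated Surv-GFP, at 48.3 and 47.2 CPM with TMZ, and in SurvNESmut-GFP at 59.0 and 60.6 CPM untreated and 58.5 and 55.2 CPM with TMZ. All 4 SurvNESmut-GFP libraries lay above all 4 Surv-GFP libraries. The clone difference was 0.37 ± 0.059 on the log2 scale untreated (edgeR adjusted p = 3.6e-05) and 0.25 ± 0.060 with TMZ (edgeR adjusted p = 0.00138). TMZ gave log2 fold changes of 0.050 (95% interval -0.078 to 0.18) and -0.072 (-0.20 to 0.052), and neither passed the test.

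HTRA2, a mitochondrial serine protease, was at 49.6 and 52.0 CPM in untreated Surv-GFP and at 62.7 and 64.1 CPM with TMZ. In SurvNESmut-GFP it stood at 77.4 and 78.6 CPM untreated and at 66.6 and 73.1 CPM with TMZ. The 4 groups did not overlap, and TMZ brought the clones closer together from opposite sides. HTRA2 changed upon TMZ by 0.32 ± 0.060 on the log2 scale in Surv-GFP (edgeR adjusted p = 0.000235) and by -0.16 ± 0.057 in SurvNESmut-GFP (edgeR adjusted p = 0.0376). The difference of these effects was -0.48 ± 0.083 (edgeR adjusted p = 0.00028). The fall in SurvNESmut-GFP was lost in 9 of 17 alternative fits, and without SurvNESmut-GFP TMZ replicate a it was -0.092 (edgeR adjusted p = 0.307). The clones differed 1.53-fold untreated (edgeR adjusted p = 1.11e-07) and 1.10-fold with TMZ (edgeR adjusted p = 0.0443). The latter call was lost in 11 of 17 fits, including that without SurvNESmut-GFP TMZ replicate b, with a log2 difference of 0.037.

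Exons of HTRA2 overlap those of LOXL3 and AUP1 on the opposite strand over 46.8% of their bases in GENCODE v29, and those of DIABLO overlap B3GNT4 over 39.1%. No source used here states whether the libraries kept the strand, so reads of such partners cannot be told apart. LOXL3 was at 157 to 419 CPM and changed by -0.19 and -0.70 on the log2 scale upon TMZ in Surv-GFP and SurvNESmut-GFP. AUP1 was at 130 to 220 CPM and changed by 0.44 and 0.096, and B3GNT4 was at no more than 0.596 CPM. The part of LOXL3 and AUP1 in the HTRA2 values was not tested.

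CASP9, the initiator caspase of the mitochondrial pathway, was at 12.8 and 12.0 CPM in untreated Surv-GFP and 14.3 and 15.04 CPM with TMZ. In SurvNESmut-GFP it was at 14.97 and 13.95 CPM untreated and at 12.3 and 13.4 CPM with TMZ. The TMZ libraries lay above the untreated ones in Surv-GFP and below them in SurvNESmut-GFP. Neither effect passed the test, with log2 fold changes of 0.24 ± 0.10 (edgeR adjusted p = 0.0513) and -0.18 ± 0.10 (edgeR adjusted p = 0.198). The difference between them did, at -0.42 ± 0.14 (edgeR adjusted p = 0.0328). It was lost in 8 of 16 alternative fits, for example with DESeq2 (adjusted p = 0.163) and without Surv-GFP TMZ replicate b (edgeR adjusted p = 0.119).

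APAF1, the scaffold of the apoptosome and a p53 target, was the one of the 8 genes that fell clearly in both clones. It went from 37.2 and 38.5 to 24.2 and 23.2 CPM in Surv-GFP and from 44.6 and 49.6 to 33.8 and 36.3 CPM in SurvNESmut-GFP. TMZ libraries were below untreated ones in each clone, and SurvNESmut-GFP was above Surv-GFP in each state. APAF1 changed by -0.68 ± 0.077 on the log2 scale in Surv-GFP (edgeR adjusted p = 1.18e-06) and by -0.43 ± 0.072 in SurvNESmut-GFP (edgeR adjusted p = 0.000198). They differed by 0.25 (95% interval 0.025 to 0.47), which missed the threshold (edgeR adjusted p = 0.0759) and passed it in 4 of 16 alternative fits. The clone difference was 0.32 untreated and 0.57 with TMZ on the log2 scale (edgeR adjusted p = 0.000892 and 7.61e-06). Exons of APAF1 overlap the weakly read ANKS1B (at most 2.33 CPM) over 10% of their bases.

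Between the clones, 4 of the 8 genes were higher in SurvNESmut-GFP when untreated (BIRC3, DIABLO, HTRA2 and APAF1) and 0 were lower, where 34.7% and 29.4% of all genes tested were. With TMZ 4 were higher (again BIRC3, DIABLO, HTRA2 and APAF1) and 2 (XIAP and BIRC2) were lower, where 34.5% and 34.7% of all genes were. The summed CPM of DIABLO and HTRA2 was set beside that of XIAP, BIRC2 and BIRC3, a ratio chosen after the values were seen. It was 0.772 and 0.786 in untreated Surv-GFP, 0.524 and 0.567 with TMZ, 1.08 and 1.05 in untreated SurvNESmut-GFP and 0.899 and 0.922 with TMZ. The ratio was thus lower with TMZ in each clone, and lowest in Surv-GFP with TMZ. CPM are not scaled for exon length, so its values compare groups and do not say which transcripts were more numerous. BIRC6 was not part of the ratio.

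Levels of different genes were compared per kb of exon. HTRA2 was highest with group means from 21.5 to 32.9 CPM per kb, followed by DIABLO with 19.7 to 25.5. BIRC6 (15 to 16.4), BIRC2 (7.68 to 16.8) and XIAP (8.97 to 13.4) came next. APAF1 (3.17 to 6.31) and CASP9 (2.69 to 3.19 CPM per kb) were lower, and BIRC3 ran from 0.213 to 2.27 CPM per kb. Transcripts of both antagonists thus stood above those of XIAP, BIRC2, BIRC3 and BIRC6 per exon length in all 4 groups. BIRC5, which codes for Survivin, was not part of this comparison. For HTRA2 this holds for the counts as deposited, as the part of the overlapping LOXL3 and AUP1 was not tested. Over the 8 libraries, 4.24% of all genes tested varied more than BIRC3 and 65.3% varied more than XIAP.

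**Figure D3:**
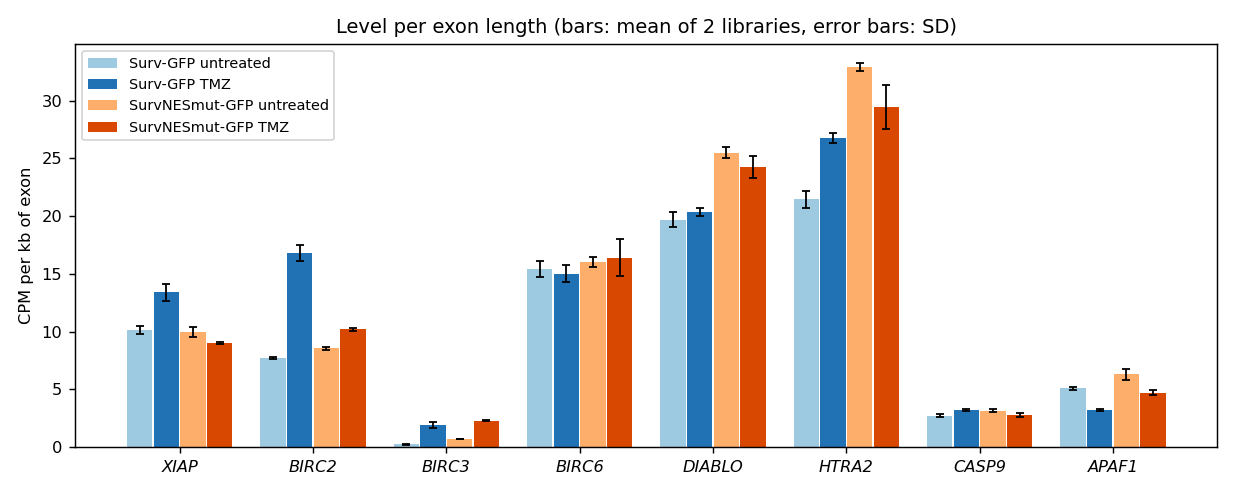
CPM per kb of exon (y axis, from 0) of the 8 genes (x axis) in the 4 groups (colours), bars being the mean of 2 libraries and error bars the SD. HTRA2 and DIABLO stand highest, and BIRC3 stays below 2.3 CPM per kb.

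For each of the 8 genes up to 3 genes with the most similar profile were found by the Euclidean distance of mean-centred log2 CPM over the 8 libraries, which share libraries and groups. For BIRC3 these were SYBU, KITLG and CD70 (distance 0.662 to 0.70, where the median over all genes was 3.83). For BIRC2 they were EIF1, PREPL and C10orf32 (0.175 to 0.18, median 1.49), and for XIAP RAB5A, ZNF134 and ZRANB1 (0.108 to 0.113, median 1.03). DIABLO was nearest to ABCF1, PDHA1 and DLD (0.0685 to 0.0961), the latter pair being subunits of mitochondrial dehydrogenases, and HTRA2 to SFT2D1, CIR1 and IFNGR1 (0.0904 to 0.15). APAF1 was nearest to HNRNPDL, GNAI2 and HMGB1 (0.137 to 0.144), CASP9 to CCDC94 and NXF1 (0.113 and 0.117) and BIRC6 to CDK12, TRIM56 and SF3A2 (0.0929 to 0.102). None of the 8 was among the nearest genes given for another.

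The other genes of the pathway were taken as lists by function. Of the 4 other IAP family genes, BIRC7 (at most 1 count) and BIRC8 (0 counts in each library, which allows up to 3) were too low to test. BIRC5, which codes for Survivin itself, was at 1152 and 1113 CPM in untreated Surv-GFP, 1938 and 2029 CPM with TMZ, 407 and 414 CPM in untreated SurvNESmut-GFP and 262 and 253 CPM with TMZ. The plasmids carry the BIRC5 cDNA, so reads of the fusion and of the endogenous gene cannot be told apart in these counts. It changed by 0.81 in Surv-GFP and by -0.67 in SurvNESmut-GFP on the log2 scale, with a difference of -1.48 ± 0.065 (edgeR adjusted p = 1.06e-10). BIRC5 was lower in SurvNESmut-GFP by 1.46 untreated and 2.95 with TMZ on the log2 scale (edgeR adjusted p = 1.33e-13 and 1.48e-16). NAIP, a sensor of bacterial proteins, fell in both clones, by 1.08 and 0.71 on the log2 scale, from 58 to 64 counts in untreated libraries down to 27 to 41 counts with TMZ.

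Of 9 other caspases listed, 6 had enough counts. In Surv-GFP 2 were higher with TMZ (CASP8 and CASP4) and 2 lower (CASP2 and CASP6), and in SurvNESmut-GFP 3 were higher (CASP8, CASP4 and CASP1) and the other 3 did not pass the test. Of all genes tested, 30.1% were higher and 28.9% lower in Surv-GFP, and 18.6% were higher in SurvNESmut-GFP, so that 2 of 6 in each direction in Surv-GFP was near the share of all genes. The median log2 fold changes of the 6 caspases were 0.331 and 0.169. CASP8, the initiator caspase of death receptors, rose by 0.36 and 0.30 on the log2 scale (edgeR adjusted p = 0.00012 and 0.0027), and its level in SurvNESmut-GFP was lower by 0.48 untreated and by 0.54 with TMZ. CASP2, a caspase activated after DNA damage, fell by 0.54 in Surv-GFP and had a log2 fold change of 0.038 in SurvNESmut-GFP, and the difference was 0.57 (edgeR adjusted p = 6.98e-05). CASP1, the inflammatory caspase, had 1 count in untreated Surv-GFP over both libraries and 94 in untreated SurvNESmut-GFP, a ratio of 94.3 after scaling (95% interval 16.5 to 3770, counting error only). With TMZ it had 2 and 153 counts, a ratio of 83.8 (22.8 to 698).

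**Figure D4:**
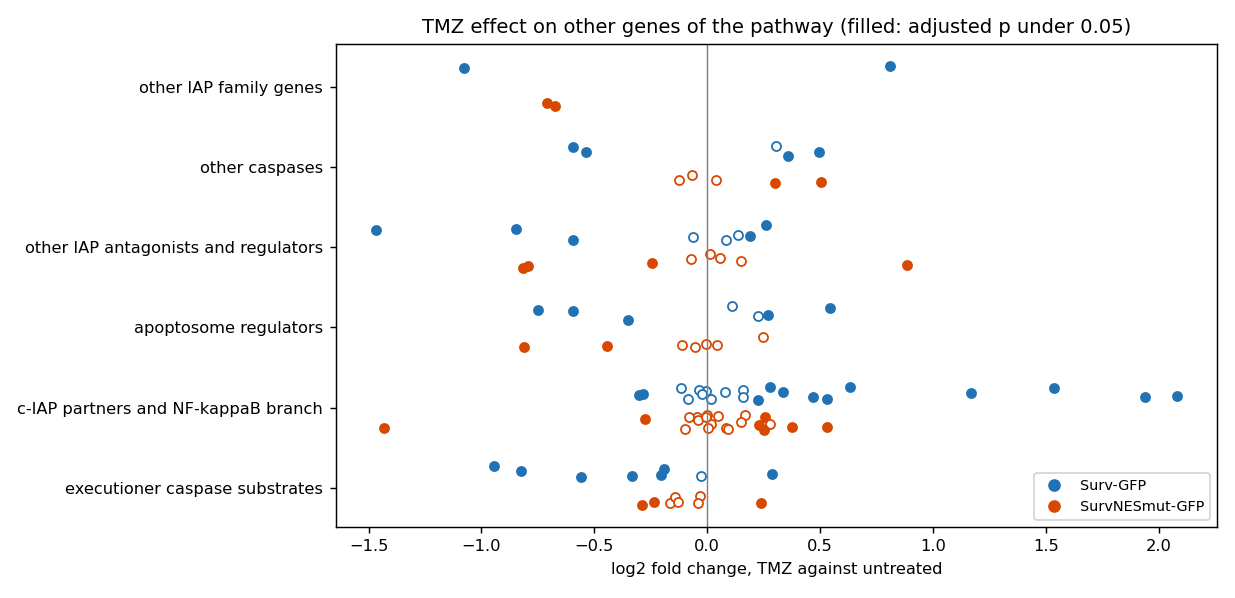
Log2 fold change of TMZ against untreated (x axis) for the tested genes of 6 pathway lists (y axis) in Surv-GFP (blue) and SurvNESmut-GFP (orange), 1 point per gene without CASP1, filled where the adjusted p was under 0.05. The highest values are those of RELB, TRAF1, TNFAIP3 and NFKB2 in Surv-GFP, and the lowest in SurvNESmut-GFP is that of TRAF1.

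The c-IAP partners and the NF-kappaB branch comprised 21 genes, all tested, of which 10 rose and 2 fell in Surv-GFP and 5 rose and 2 fell in SurvNESmut-GFP. Over all genes tested 30.1% rose and 28.9% fell in Surv-GFP and 18.6% rose and 19.1% fell in SurvNESmut-GFP, and the 5 of 21 that rose in the latter were near that share. The median log2 fold changes were 0.158 and 0.0465, beside 0 and 0.0035 over all genes. In 7 genes the log2 fold change was lower in SurvNESmut-GFP (20.2% of all genes tested), and in 1, TAB3, it was higher (16.6% of all genes tested; difference 0.31, edgeR adjusted p = 0.0296, lost in 7 of 16 alternative fits). RELB, a subunit of NF-kappaB in the non-canonical pathway, was at 10.7 and 10.0 CPM in untreated Surv-GFP and at 41.3 and 46.3 CPM with TMZ, against 26.0 and 26.8 CPM and 31.1 and 37.5 CPM in SurvNESmut-GFP. Groups did not overlap, and untreated SurvNESmut-GFP lay between the states of Surv-GFP. RELB changed by 2.08 on the log2 scale in Surv-GFP (edgeR adjusted p = 4.39e-11) and by 0.37 in SurvNESmut-GFP (edgeR adjusted p = 0.00432), with a difference of -1.71 ± 0.14 (edgeR adjusted p = 1.26e-07). Without SurvNESmut-GFP TMZ replicate b the second value was 0.24.

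TRAF1, an adaptor that binds c-IAP proteins, moved in opposite directions. It went from 3.96 and 4.25 to 16.2 and 15.3 CPM in Surv-GFP and from 33.3 and 35.5 to 10.8 and 14.8 CPM in SurvNESmut-GFP. The clones were far apart untreated and close together with TMZ. On the log2 scale TRAF1 changed by 1.94 and -1.43 (edgeR adjusted p = 1.17e-08 and 4.46e-08), and the difference of -3.37 ± 0.19 (edgeR adjusted p = 1.52e-09) exceeded that of BIRC3. NFKB2 and TNFAIP3 were named after their values were seen. NFKB2, the p100 precursor, changed by 1.17 in Surv-GFP and 0.25 in SurvNESmut-GFP on the log2 scale, and TNFAIP3, the deubiquitinating enzyme A20, by 1.54 and 0.047, where the last value did not pass (edgeR adjusted p = 0.735). Both were higher in untreated SurvNESmut-GFP, by 0.91 and 1.35 on the log2 scale (edgeR adjusted p = 1.69e-09 and 1.59e-08). BIRC3, RELB, TRAF1, NFKB2 and TNFAIP3 were thus each higher in SurvNESmut-GFP than in Surv-GFP before exposure, but these are picked genes. Of all 21 genes of the list, 11 were higher in untreated SurvNESmut-GFP and 3 lower (TNFRSF1A, TAB3 and SHARPIN). Over all genes tested 34.7% were higher and 29.4% lower.

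**Figure D5:**
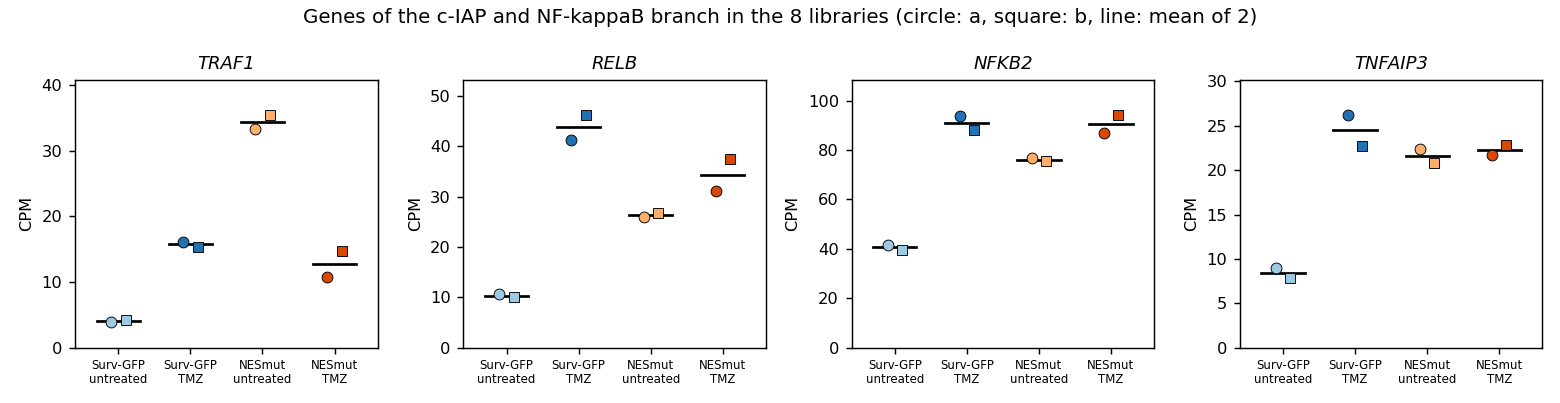
CPM (y axis, from 0) of TRAF1, RELB, NFKB2 and TNFAIP3 in the 4 groups (x axis, NESmut stands for SurvNESmut-GFP), with a circle for replicate a, a square for replicate b and a line at the mean of 2. Untreated Surv-GFP is lowest in each panel, and TRAF1 is highest in untreated SurvNESmut-GFP at 33.3 and 35.5 CPM.

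Not all genes of this branch moved. TRAF2, through which c-IAP proteins reach TNF receptors, had log2 fold changes of -0.023 and -0.10, and RIPK1, a kinase that c-IAP proteins ubiquitinate, -0.036 and -0.00047, none past the threshold (edgeR adjusted p = 0.306 to 0.999). MAP3K14, the kinase NIK that c-IAP proteins mark for degradation, had 0.017 and 0.28, neither past the threshold (edgeR adjusted p = 0.923 and 0.0657), and with TMZ it was higher in SurvNESmut-GFP by 0.70 (edgeR adjusted p = 7.12e-05). RBCK1, a subunit of the linear ubiquitin ligase, rose in both clones by 0.63 and 0.53. TNFRSF1A, a TNF receptor, fell in SurvNESmut-GFP by 0.28, had -0.12 in Surv-GFP (edgeR adjusted p = 0.0556), and was lower in SurvNESmut-GFP by 0.71 untreated and by 0.88 with TMZ.

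Of the 8 other IAP antagonists and regulators, 2 rose and 3 fell in Surv-GFP and 1 rose and 3 fell in SurvNESmut-GFP, where 30.1% and 28.9% of all genes tested did so in the former and 18.6% and 19.1% in the latter. The medians of the 8 genes, 0.0109 and -0.0303 on the log2 scale, lay close to those of all genes (0 and 0.0035). SEPT4 (now SEPTIN4), named after its values were seen, had 38 to 157 counts per library. Its mean CPM went from 7.05 to 2.53 in Surv-GFP and from 8.48 to 4.9 in SurvNESmut-GFP, without overlap in either clone. MAGED1, an adaptor that binds XIAP, fell by 0.85 and 0.82 on the log2 scale (edgeR adjusted p = 3.78e-09 and 2.92e-08). XAF1, a XIAP-binding protein, fell by 0.59 in Surv-GFP and rose by 0.89 in SurvNESmut-GFP, with a difference of 1.48 ± 0.30 (edgeR adjusted p = 0.00101) from only 33 to 70 counts per library. Its fall in Surv-GFP was lost in 4 of 17 alternative fits, with DESeq2 and without Surv-GFP untreated replicate a or TMZ replicate a or b, and its rise in 1 of 17, without SurvNESmut-GFP untreated replicate a (log2 fold change 0.67, edgeR adjusted p = 0.0601). PARL, the protease that matures SMAC, had log2 fold changes of 0.13 (not past) and -0.25, with a difference of -0.38 (edgeR adjusted p = 0.0106), and each of the latter calls was lost in 3 alternative fits. For the fall these were DESeq2 and the fits without SurvNESmut-GFP untreated replicate b or TMZ replicate b, and for the difference those without Surv-GFP untreated replicate b, Surv-GFP TMZ replicate a or SurvNESmut-GFP untreated replicate b. SIAH1, a ubiquitin ligase, rose by 0.26 in Surv-GFP and with TMZ was lower in SurvNESmut-GFP by 0.64. Its rise did not pass with DESeq2 (adjusted p = 0.0912), without Surv-GFP untreated replicate a (edgeR adjusted p = 0.0778) or without Surv-GFP TMZ replicate a (log2 fold change 0.19, edgeR adjusted p = 0.134). PGAM5, a mitochondrial phosphatase, was higher in SurvNESmut-GFP by 0.62 untreated and 0.58 with TMZ.

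Of the 7 apoptosome regulators, 2 rose and 3 fell in Surv-GFP and 2 fell in SurvNESmut-GFP. The shares over all genes tested were 30.1% and 28.9% in Surv-GFP and 19.1% falling in SurvNESmut-GFP, and the medians of the list were 0.11 and -0.054 on the log2 scale. CYCS, which codes for cytochrome c, went from 116 and 110 to 170 and 160 CPM in Surv-GFP, and was at 124 and 116 CPM before and 124 and 116 CPM after TMZ in SurvNESmut-GFP. Its log2 fold changes were 0.55 (edgeR adjusted p = 3.5e-07) and -0.0051 (edgeR adjusted p = 0.956), and they differed by -0.55 ± 0.080 (edgeR adjusted p = 5.37e-05). PTMA, a regulator of apoptosome formation, fell by 0.75 and 0.81 on the log2 scale in Surv-GFP and SurvNESmut-GFP. CSE1L fell by 0.35 in Surv-GFP and had -0.054 in SurvNESmut-GFP, with a difference of 0.30 (edgeR adjusted p = 0.00359), and it was higher in SurvNESmut-GFP by 1.06 untreated and 1.36 with TMZ. NOL3, an inhibitor of apoptosis with a CARD domain, was lower in SurvNESmut-GFP by 0.54 untreated and 0.77 with TMZ.

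Among 8 substrates of executioner caspases, 1 rose and 6 fell in Surv-GFP, and 1 rose and 2 fell in SurvNESmut-GFP. Of all genes tested 30.1% rose and 28.9% fell in the first clone and 18.6% and 19.1% in the second. The median log2 fold changes of the 8 were -0.269 and -0.135. PARP1, a DNA repair enzyme cleaved in apoptosis, went from 417 and 433 to 241 and 239 CPM in Surv-GFP and stayed between 407 and 425 CPM in all SurvNESmut-GFP libraries. PARP1 changed by -0.83 on the log2 scale in Surv-GFP (edgeR adjusted p = 2.33e-10), and the difference between clones was 0.79 ± 0.065 (edgeR adjusted p = 1.34e-07). GSN, the actin-severing protein gelsolin, fell by 0.94 in Surv-GFP, had -0.14 in SurvNESmut-GFP and differed by 0.80 (edgeR adjusted p = 5.48e-06), and it was lower in SurvNESmut-GFP by 1.42 untreated and 0.62 with TMZ. The value of -0.14 was -0.25 and passed without SurvNESmut-GFP TMZ replicate b (edgeR adjusted p = 0.00176), and it also passed with no filter (edgeR adjusted p = 0.0384). DFFA, the inhibitor of the apoptotic nuclease, rose by 0.29 and 0.24 in Surv-GFP and SurvNESmut-GFP, and the second value did not pass without SurvNESmut-GFP TMZ replicate a (0.13, edgeR adjusted p = 0.169) or untreated replicate a (0.21, edgeR adjusted p = 0.0876). ACIN1, a chromatin condensation factor, fell by 0.19 and 0.29.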

How the data were processed

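RNA of clones D6 and L2, untreated or exposed to TMZ, was sequenced on the Illumina platform by the authors. The deposited counts are whole-number reads per gene symbol without normalization. The labels name STAR 2.5.0b, Cufflinks 2.2.1 and edgeR in the submitters' processing notes without their roles, and no source used here states the genome build, the annotation or the strandedness. The authors' own comparison tables (edgeR fold changes on a log2 scale, mean expression, F, p and FDR per gene) were not used. The 2 rows that name no gene (no feature 11.2 to 14.3%, ambiguous 1.19 to 1.28% of the summed counts) were left out.

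All 8 libraries were fitted together in R 4.3.3 with edgeR 4.0.16 (TMM, filter on low counts by group, legacy quasi-likelihood F test), with 4 group means and Benjamini-Hochberg adjustment over 14201 genes, called at an adjusted p of 0.05. The common biological coefficient of variation was 4.09%. A fold change compares groups of 2 libraries, intervals are 95%, and intervals and limits from counts cover counting error only. The scripts were tested on simulated data. Alternatives were other scalings, other filters, DESeq2 1.42.0, other quasi-likelihood settings, a replicate block, a fit restricted to the libraries compared, and the omission of 1 library at a time.

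The 8 genes and the lists were chosen with earlier results of these data known. Named from each list were BIRC5 and CASP8, and, for every comparison and direction (5 comparisons), the called gene of smallest p whose groups did not overlap. Some genes picked this way are not reported here. CPM use TMM-scaled library sizes. Per-length levels use the union of exons in GENCODE v29, and shared stretches of 50 bases were counted in its transcripts. All 8 promoters were matched by symbol in RefSeq.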

Additional observations from a re-analysis of the deposited data

Results flagged for a closer look

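In the 18 genes given here, which are not all that passed, the TMZ effect differed between the clones by the test of the difference itself (edgeR adjusted p under 0.05), and this is what flagged them. Over all genes tested 20.2% were lower and 16.6% higher in this difference. Many list genes were named by their p in this same comparison, and NFKB2 and TNFAIP3 after their values were seen. For such genes, passing was fixed by the choice. Values are the log2 fold change in SurvNESmut-GFP minus that in Surv-GFP. Of the 8 genes the report turns on, BIRC3 (-1.39), BIRC2 (-0.87), XIAP (-0.55), HTRA2 (-0.48) and CASP9 (-0.42) were flagged. Among the c-IAP partners and NF-kappaB genes they were TRAF1 (-3.37), RELB (-1.71), TNFAIP3 (-1.49), NFKB2 (-0.92) and TAB3 (0.31). The other genes were BIRC5 (-1.48), XAF1 (1.48), GSN (0.80), PARP1 (0.79), CASP2 (0.57), CYCS (-0.55), PARL (-0.38) and CSE1L (0.30). In TRAF1, XAF1, BIRC5 and HTRA2 the effects in both clones passed the threshold in opposite directions, though for XAF1 and HTRA2 not under every alternative. Groups of 2 libraries are too small to test a single library as an outlier.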

How the results depend on the processing

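Of the 40 values (8 genes in 5 comparisons), 26 kept their direction and their side of the threshold in every alternative, among them 20 of the 24 that were called. The calls that did not were HTRA2 upon TMZ in SurvNESmut-GFP, HTRA2 and BIRC3 between the clones with TMZ, and CASP9 in the difference of TMZ effects. The cause was not tested. Over all alternatives the number of the 8 genes called was 5 to 6 upon TMZ in Surv-GFP, 3 to 5 in SurvNESmut-GFP, 4 to 6 in the difference, 4 to 5 between the clones untreated and 4 to 6 with TMZ.

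For HTRA2 upon TMZ in SurvNESmut-GFP the adjusted p was 0.103 with library size alone, 0.127 with DESeq2, 0.0719 with only the libraries compared, and 0.0501 to 0.307 without Surv-GFP untreated a, Surv-GFP TMZ a or b, SurvNESmut-GFP untreated a or b, or SurvNESmut-GFP TMZ a. For CASP9 in the difference it was 0.0612 with library size alone, 0.0526 with a filter of 1 CPM in 2 libraries, 0.163 with DESeq2, and 0.0509 to 0.119 without Surv-GFP untreated b, Surv-GFP TMZ a or b, SurvNESmut-GFP untreated a or SurvNESmut-GFP TMZ a. For BIRC3 between the clones with TMZ it was 0.197 with DESeq2, 0.0695 with only the libraries compared, and 0.0544 to 0.339 without Surv-GFP TMZ b or 1 of the SurvNESmut-GFP libraries. For HTRA2 between the clones with TMZ it was 0.0589 with DESeq2's size factors, 0.10 without a filter, 0.171 with DESeq2, 0.0908 with only the libraries compared, and 0.0615 to 0.635 with 1 library left out, unless that was SurvNESmut-GFP TMZ a. Its log2 difference was 0.087 without Surv-GFP TMZ a.

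XIAP upon TMZ in SurvNESmut-GFP passed with DESeq2's size factors (adjusted p = 0.0422), no filter (0.0482) or a robust prior (0.0446). CASP9 upon TMZ in Surv-GFP passed with the quasi-likelihood method of edgeR 4, with only the libraries compared, and without SurvNESmut-GFP TMZ a or b (adjusted p = 0.0365 to 0.0498). APAF1 in the difference passed with library size alone, the filter of 1 CPM, and without SurvNESmut-GFP untreated b or TMZ a (0.0329 to 0.0461). BIRC2 between the untreated clones passed with edgeR 4 (0.0489), and with TMZ BIRC6 (log2 difference 0.19) and CASP9 (-0.29) passed without SurvNESmut-GFP TMZ b.

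Log2 values near 0 changed sign. Upon TMZ in Surv-GFP, BIRC6 was -0.12 to 0.016 (positive without Surv-GFP untreated b or TMZ a). Upon TMZ in SurvNESmut-GFP, leaving out 1 library gave -0.066 to 0.13 for BIRC6, -0.020 to 0.098 for CASP2, -0.054 to 0.047 for CYCS, -0.074 to 0.084 for TAB3 and -0.0084 to 0.10 for TNFAIP3. There, with library size alone CYCS was 0.031 and PARP1 0.0030, and TAB3 was -0.00052 with DESeq2's size factors and -0.0013 with DESeq2. BIRC6 ranged from -0.034 to 0.17 in the difference and from -0.012 to 0.19 between the clones with TMZ, its lowest values being without SurvNESmut-GFP TMZ a. XIAP between the untreated clones ranged from -0.082 with library size alone, and -0.067 with 1 library left out, to 0.020 (positive without Surv-GFP untreated b or SurvNESmut-GFP untreated a). Of the other pathway genes, TAB3 and PARL lost their call in the difference in 7 and 3 alternatives.

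No large effect shared by libraries of the same letter was seen, since the deviations of a from b in different groups correlated between -0.0671 and 0.0832 across genes. Whether the letters mark matched cultures cannot be told from these values. With the letter as a replicate block, 5, 4, 5, 4 and 6 of the 8 genes were called in the 5 comparisons, and 0 of their 40 calls changed. Over all genes tested this fit called 8203, 5179, 5074, 8971 and 9722 in the same order. Scaling moved the median of all genes by at most 0.0563 on the log2 scale. Depth limits BIRC3 most, with 24 to 30 counts in untreated Surv-GFP, and n = 2 per group limits all errors.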
